A study of Homo sapiens with 6 samples.

Results

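PRDM1, STMND1 and the long noncoding RNA ENSG00000231403 are 3 genes, of 58051 in the count table, whose RNA was more abundant when auxin was added to DLD-1 cells already exposed to Leptomycin B. They were chosen by this difference, from genes outside the cluster on the long arm of chromosome 3 (3q25) that holds TIPARP. Their difference between the groups is therefore the reason for their choice and is given as a description, with no p-value. Counts of calls that include them show only where they stand among all genes. No numeric limit was part of that choice.

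The cells were DLD-1, a colorectal adenocarcinoma line of genotype AID-NeonGreen-TPR. Both endogenous copies of TPR, a protein of the nuclear basket of the pore, carried an auxin-inducible degron and NeonGreen, and the plant ligase TIR1 was expressed from the RCC1 locus. The LMB group (3 libraries) received 200 nM Leptomycin B, an inhibitor of the export receptor CRM1, for 3 h, and the LMB+auxin group (3 libraries) received the same with 1 mM auxin during the last 2 h. All 6 cultures thus carried the degron, TIR1 and the CRM1 block, and no culture with auxin in untagged cells was analysed here, so the effects of the auxin compound and of TPR loss cannot be told apart.

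Raw counts per library totalled 28261903 to 35992425. Auxin removes TPR protein rather than its mRNA, so the table of RNA counts does not check the depletion. The 7 colon epithelium markers (EPCAM, CDH1, KRT8, KRT18, KRT20, CDX2 and VIL1) summed to 7090 to 7212 CPM, the count scaled by library size, in LMB and to 7042 to 7587 CPM in LMB+auxin. Of 6 leukocyte and plasma cell markers, 1 passed the filter on low counts (given with STMND1), SDC1, which epithelial cells also express. The B cell marker MS4A1 was at 0 in every library, and the leukocyte marker PTPRC had at most 1 count. All 3 fibroblast markers (COL1A1, COL1A2 and PDGFRB) stayed under the filter, with at most 27 counts in a library.

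PRDM1 encodes BLIMP-1, a zinc finger repressor with a PR domain that drives B cells to become plasma cells and, in the mouse gut, holds back adult enterocyte genes until weaning. It represses its targets by recruiting histone deacetylases, methyltransferases and Groucho-type corepressors. STMND1 encodes stathmin domain containing 1, a little-studied relative of the stathmins, which bind tubulin and promote the disassembly of microtubules. ENSG00000231403 is annotated only as a long noncoding RNA.

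The promoter windows of the genes are shown so that the upstream sequence of the 3 genes can be compared. Each runs from 250 bases before to 50 bases after an annotated start, 5′ to 3′ on the strand of the gene, in GRCh38. Capitals mark matches, on either strand, to any of 7 motifs. The aryl hydrocarbon receptor recognises the core GCGTG. AP-1 factors bind TGANTCA. BLIMP-1 sites hold the core GNGAAAG. The E-box searched was CACGTG. The TATA box was read as TATAAA. The CCAAT box was searched by those letters. The GC box was read as GGGCGG. No marked match overlaps another. The windows of PRDM1 and STMND1 come from RefSeq (GRCh38.p14), which lists 2 for PRDM1, at chr6:106086086-106086385 (window 1) and chr6:106098691-106098990 (window 2), both on the plus strand, and 1 for STMND1, at chr6:17101800-17102099 on the plus strand. That of ENSG00000231403, at chr2:11390318-11390617 on the minus strand, was read from the reference genome at the start given by GENCODE 44.
PRDM1 window 1: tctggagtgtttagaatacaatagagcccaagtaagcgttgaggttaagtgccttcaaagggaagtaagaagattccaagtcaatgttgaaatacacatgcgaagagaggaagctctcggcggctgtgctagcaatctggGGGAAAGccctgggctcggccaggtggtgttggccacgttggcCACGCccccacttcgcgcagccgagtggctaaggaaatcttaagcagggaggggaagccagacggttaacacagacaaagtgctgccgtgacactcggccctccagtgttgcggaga
PRDM1 window 2: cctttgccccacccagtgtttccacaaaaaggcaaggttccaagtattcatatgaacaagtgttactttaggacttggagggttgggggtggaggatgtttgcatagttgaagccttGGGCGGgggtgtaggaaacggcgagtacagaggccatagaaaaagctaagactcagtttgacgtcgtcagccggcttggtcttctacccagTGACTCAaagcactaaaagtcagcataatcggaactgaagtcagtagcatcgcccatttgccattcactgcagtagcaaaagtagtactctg
STMND1: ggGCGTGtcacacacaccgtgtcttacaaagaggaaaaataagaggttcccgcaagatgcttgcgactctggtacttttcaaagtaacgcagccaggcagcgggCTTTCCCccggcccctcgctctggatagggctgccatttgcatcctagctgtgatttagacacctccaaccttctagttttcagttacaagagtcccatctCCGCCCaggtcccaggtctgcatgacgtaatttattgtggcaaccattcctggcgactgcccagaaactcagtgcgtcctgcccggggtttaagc
ENSG00000231403: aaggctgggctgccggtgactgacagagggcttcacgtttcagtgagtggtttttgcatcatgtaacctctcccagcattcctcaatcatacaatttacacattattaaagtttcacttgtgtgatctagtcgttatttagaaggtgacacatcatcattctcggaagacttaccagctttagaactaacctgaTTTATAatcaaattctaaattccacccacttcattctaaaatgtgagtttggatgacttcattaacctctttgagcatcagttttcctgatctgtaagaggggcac

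No motif of the 7 was present in all 4 windows. GCGTG occurred in PRDM1 window 1 (minus strand, position -67 to -63, counted from 0 at the start) and in STMND1 (plus strand, -248 to -244), and 36.5% of 35116 RefSeq windows of this length hold it. GNGAAAG occurred in the same windows, at -110 to -104 and at -146 to -140, against 22.9% of all windows. The AP-1 motif was found in PRDM1 window 2 alone, at -42 to -36, and is held by 7.71% of windows. GGGCGG was in PRDM1 window 2 (-133 to -128) and STMND1 (-45 to -40), against 45.0% of all windows. ENSG00000231403 held only TATAAA, at -56 to -51, against 11.5%. That match was on the strand opposite to the gene, so the window as written reads TTTATA there. CACGTG (7.26% of windows) and CCAAT (34.6%) had no match. The windows of PRDM1 held 54.3% and 48.3% G and C, that of STMND1 53.7% and that of ENSG00000231403 40.0%, below the median of 58.7% over all windows. CpG pairs numbered 14 and 8 in PRDM1, 13 in STMND1 and 4 in ENSG00000231403, beside a median of 14. A match is one of letters only, occupancy of these sites was not measured, and counts per gene do not tell which start of PRDM1 was used.

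PRDM1 (ENSG00000057657) is a protein-coding gene with 10 transcripts on the plus strand of chromosome 6, from 105993463 to 106109939 (GRCh38, GENCODE 44), and its merged exons cover 6750 bases. With LMB alone, replicates 1, 2 and 3 held 321, 375 and 443 raw counts, and with auxin they held 506, 532 and 512. After TMM scaling, the levels were 11.1, 12.0 and 12.3 CPM in the LMB libraries, against 17.1, 18.3 and 16.1 CPM in those with auxin. Every LMB+auxin library lay above every LMB library, the lowest of the former being 1.31 times the highest of the latter. The mean (± SD, n = 3 each) was 11.8 ± 0.623 CPM without auxin, against 17.2 ± 1.07 CPM with it. In bulk RNA, more cells with the transcript and more transcript per cell cannot be told apart.

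The spread of PRDM1 between replicates was small. Its coefficient of variation was 5.27% in LMB and 6.22% in LMB+auxin, close to the counting error of a single library, which was 4.34% to 5.58% (1 over the square root of the count). The ratio of LMB+auxin to LMB was 1.54 in replicate pair 1 (95% interval 1.33 to 1.77), 1.52 in pair 2 (1.33 to 1.74) and 1.31 in pair 3 (1.15 to 1.49). These intervals are exact binomial ones and cover counting error only. In the fit across all genes the log2 fold change (± standard error, as in all that follow) was 0.54 ± 0.09, and 0.53 ± 0.08 when the replicate number was kept as a block.

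STMND1 (ENSG00000230873), a protein-coding gene with 3 transcripts, lies on the short arm of the same chromosome, from 17102050 to 17131378 on the plus strand, with 3096 exonic bases. Replicates 1, 2 and 3 held only 20, 17 and 41 counts with LMB alone, against 80, 58 and 88 with auxin. Scaled, these were 0.693, 0.545 and 1.14 CPM in LMB libraries, with auxin 2.70, 1.99 and 2.77 CPM. The groups did not overlap, and LMB replicate 3 was the highest of its group at about the counts of the other two LMB libraries added together. The mean level (± SD, n = 3 each) was 0.793 ± 0.310 CPM without auxin, against 2.49 ± 0.432 CPM with it.

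STMND1 was one of the least abundant genes tested, at rank 16972 of 16974 by its mean in LMB. It passed the filter (CPM above 1 in at least 3 libraries) with 4 libraries, all 3 of LMB+auxin and 1 of LMB, so its place among the tested genes rested on the group in which it was high. The counting error of a single library was 15.6% to 24.3% in LMB, beside a coefficient of variation of 39.1% between the LMB replicates. The ratio within pairs was 3.90 in pair 1 (95% counting interval 2.36 to 6.72), 3.65 in pair 2 (2.10 to 6.69) and 2.43 in pair 3 (1.66 to 3.61). All 3 intervals overlap each other. Its log2 fold change was 1.62 ± 0.27, the highest of all tested genes, and 1.63 ± 0.19 with the replicate block.

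ENSG00000231403 (a lncRNA with 1 transcript of 3 exons and 626 exonic bases) lies on the minus strand of chromosome 2, from 11388023 to 11390367. Its counts in replicates 1, 2 and 3 were 69, 54 and 74 without auxin, against 182, 93 and 147 with it. The corresponding levels were 2.39, 1.73 and 2.06 CPM in the LMB libraries, against 6.15, 3.19 and 4.63 CPM in those with auxin. Again the groups were apart, but LMB+auxin replicate 2 lay well below replicates 1 and 3. The mean (± SD, n = 3 each) was 2.06 ± 0.330 CPM without auxin, against 4.66 ± 1.48 CPM with it.

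In this lncRNA the spread was wider with auxin, with a coefficient of variation of 31.7% in LMB+auxin and 16.0% in LMB, against a counting error of 7.41% to 13.6% per library. The ratio was 2.57 in pair 1 (95% counting interval 1.94 to 3.44), 1.84 in pair 2 (1.304 to 2.628) and 2.25 in pair 3 (1.69 to 3.02). The log2 fold change was 1.18 ± 0.24, the fifth highest of all tested genes, and 1.16 ± 0.14 with the replicate block.

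**Figure D1:**
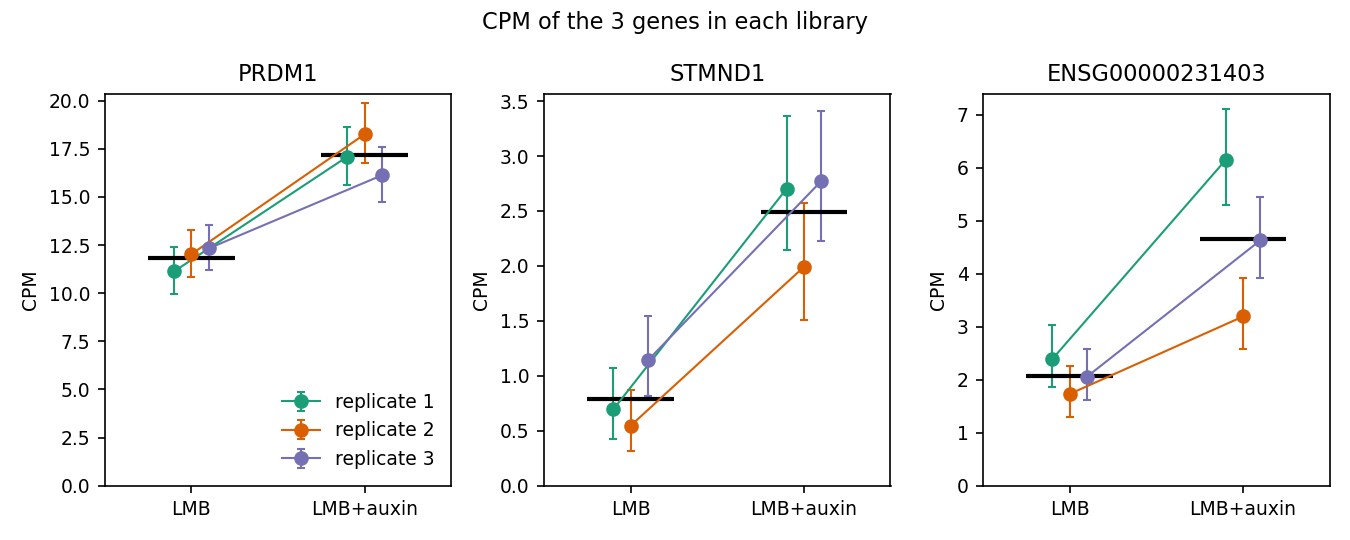
CPM of PRDM1, STMND1 and ENSG00000231403 in the LMB and LMB+auxin groups (vertical axes in CPM, from 0). Points are libraries with 95% exact Poisson intervals of the count, lines join libraries of the same replicate number and black bars are group means (n = 3); in each gene all LMB+auxin points lie above all LMB points, and the spread of PRDM1 is the narrowest relative to its mean (coefficients of variation of 5.27% and 6.22%).

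**Figure D2:**
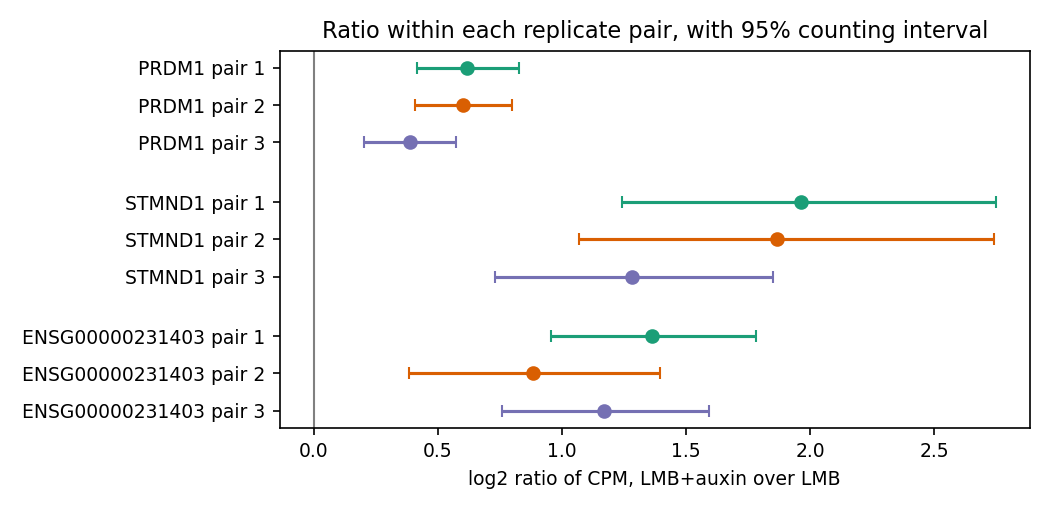
Log2 ratio of CPM, LMB+auxin over LMB, in each of the 3 replicate pairs of each gene. Points are single pairs and bars are 95% exact binomial intervals for counting error; all 9 ratios are above 0, from 0.39 for PRDM1 in pair 3 to 1.96 for STMND1 in pair 1.

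The order by absolute gain differed from the order by fold. The mean gain over the 3 pairs was 5.33 ± 1.33 CPM for PRDM1, 2.60 ± 1.15 CPM for ENSG00000231403 and 1.69 ± 0.287 CPM for STMND1 (SD, n = 3 pairs). Per kilobase of exon, which allows levels to be set side by side between genes, the lncRNA was the most abundant of the 3 genes. Without auxin it was at 3.29 ± 0.527 CPM per kilobase, and with auxin at 7.44 ± 2.36 (SD, n = 3 each). PRDM1 was at 1.75 ± 0.0923 in LMB and 2.54 ± 0.158 in LMB+auxin, and STMND1 at 0.256 ± 0.100 and 0.804 ± 0.140 on that scale. The 3 genes did not overlap in this level within either group, in any library. STMND1 remained under 1 CPM per kilobase in all 6 libraries. These lengths come from GENCODE 44, a later set of gene models than the one used for counting.

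The libraries of one replicate number shared features in 2 of the 3 genes. For STMND1 and ENSG00000231403, replicate 2 was the lowest library of both groups, at -0.43 and -0.30 log2 CPM from the group mean for STMND1 in LMB and LMB+auxin, and at -0.23 and -0.49 for ENSG00000231403. PRDM1 did not follow this order, and replicate 2 was its highest library with auxin (0.09 above the group mean on the log2 scale). The libraries numbered 2 also deviated together over all 16974 tested genes (r of 0.69), so this feature is not particular to the members. For STMND1 in LMB, replicates 2 and 1 held 17 and 20 counts, with overlapping 95% counting intervals (9.90 to 27.2 and 12.2 to 30.9). Over the 6 libraries, Pearson's r of log2 CPM was 0.89 between PRDM1 and STMND1, 0.90 between STMND1 and ENSG00000231403 and 0.78 between PRDM1 and ENSG00000231403. These values are descriptions, since the difference between the same 2 groups chose the genes.

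Set against all 16974 tested genes, only 8 had a log2 fold change of 1 or more, 2 of them STMND1 and ENSG00000231403. At 0.5 or more lay 47 genes, PRDM1 among them at rank 38. Without the block, edgeR called 1 tested gene (0.00589%), where a call needs a 1.3-fold change as well as an adjusted p below 0.05, and 0 of the 3 members. That gene, named here after its values were seen, was LINC02029 at 1.26 ± 0.13 on the log2 scale (edgeR adjusted p 0.0379). With the replicate block it called 201 genes (1.18%), 51 of them higher (0.300%), and all 3 members. LMB+auxin lay entirely above LMB in 831 genes (4.90%), again including all 3. Since this contrast chose the members, nothing is read from these counts. The 51 genes higher with the block had a median level of 3.63 CPM in LMB. PRDM1 lay above this median and the other two below it.

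**Figure D3:**
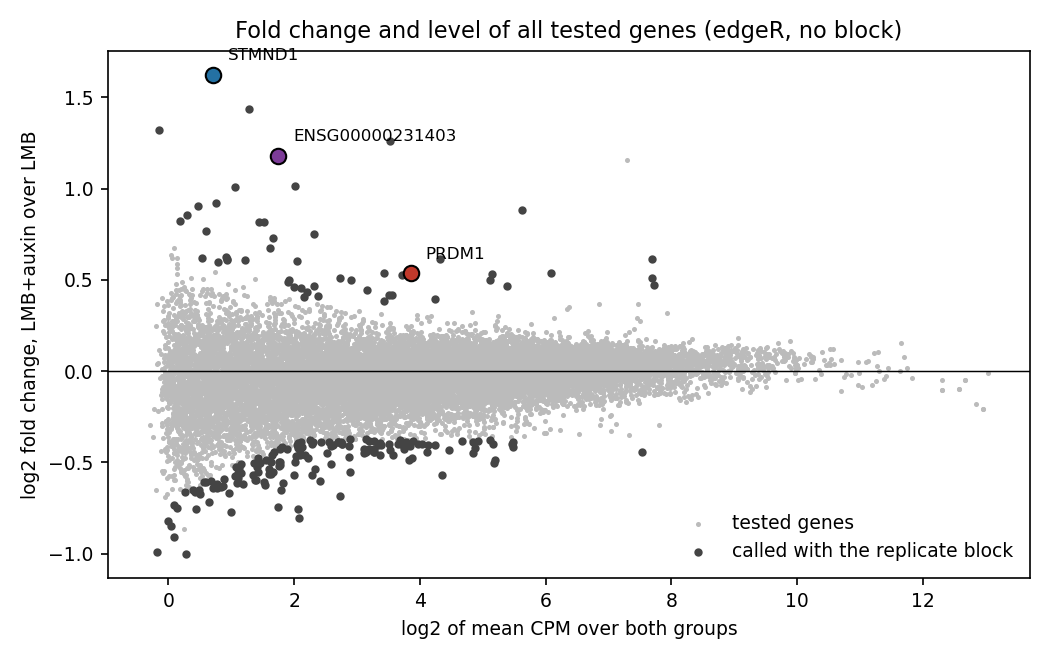
Log2 fold change (LMB+auxin over LMB, edgeR without the block) against the log2 of the mean CPM for the 16974 tested genes. Dark points are the 201 genes called with the replicate block and the 3 coloured points are the members. STMND1 lies highest of all tested genes and at the low end of the level axis.

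The genes around each member were examined to see how far the difference extended along the chromosome. Within 500 kb of the 3 gene bodies the table held 54 other genes, of which 16 passed the filter and 11 had no count in any library. Their median log2 fold change was 0.04, beside -0.0027 over all tested genes. Without the block edgeR called none of the 16 (1 had an unadjusted p under 0.05, as had 741 of all 16974 tested genes, and DESeq2 and limma-voom called 0). It called 1, the lncRNA ENSG00000272341, with the block (1.18% of all tested genes were called) or when the filter on low counts was dropped. With the block 3 of the 16 had an unadjusted p under 0.05, as had 3376 of the 16974 tested genes.

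The 4 tested neighbours of PRDM1 had log2 fold changes from 0.02 to 0.08. ATG5, an autophagy gene whose body overlaps that of PRDM1 on the opposite strand, was at 0.08 ± 0.07 (edgeR adjusted p 0.954). CRYBG1, 251 kb to the right, was at 0.02 ± 0.06 (edgeR adjusted p 0.983). All 4 lay below the 0.54 of PRDM1, but PRDM1 was chosen for its rise and stood at rank 38 of all tested genes. Nothing is read from this order.

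ENSG00000231403 had 5 tested neighbours. ROCK2, a kinase of the actin cytoskeleton 39.7 kb to the left, had a log2 fold change of 0.11 ± 0.06, and E2F6, a repressor of the E2F family 54.0 kb to the right, was at -0.01 ± 0.08 (edgeR adjusted p 0.954 and 0.994). For ROCK2 every LMB+auxin library lay above every LMB library, as in 4.90% of tested genes. With the block its edgeR adjusted p was 0.138. RN7SL674P, a copy of the 7SL RNA that may share reads with other copies, was at 0.41 ± 0.29 (edgeR adjusted p 0.954). The remaining pair, SLC66A3 and LPIN1, were at 0.06 and 0.00 on the log2 scale.

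Around STMND1, 6 of the 7 tested neighbours lay between -0.07 and 0.10. The nearest on the right was RBM24, an RNA-binding protein gene 150 kb away, at -0.07 ± 0.29. NUP153, which encodes another protein of the nuclear basket, lies 484 kb to the right and was at 0.06 ± 0.09 (edgeR adjusted p 0.960). The exception was ENSG00000272341, a lncRNA of a single exon on the plus strand, from 16764346 to 16766883 of chromosome 6.

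In replicates 1, 2 and 3, ENSG00000272341 held 47, 34 and 51 counts without auxin, against 85, 80 and 86 with it. These were 1.63, 1.09 and 1.42 CPM in the LMB libraries, against 2.87, 2.75 and 2.71 CPM in those with auxin, so the groups were apart here too, as in 4.90% of tested genes. Its log2 fold change was 1.01 ± 0.18 without the block (edgeR adjusted p 0.526). With the replicate block it was 1.01 ± 0.17 (edgeR adjusted p 9.0e-06), and the call held when any one replicate pair was left out (0.88 to 1.11). Also without the block, it missed the threshold in DESeq2 (adjusted p 0.0766) and passed it in edgeR when genes of low count were kept (adjusted p 0.00410). This lncRNA lies 335 kb from STMND1 but 2855 bases from ATXN1 and 399 bases from ATXN1-AS1, with no exonic base in common with either. ATXN1 itself, which encodes ataxin 1, was at -0.01 ± 0.07, and ATXN1-AS1 at 0.10 ± 0.23.

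**Figure D4:**
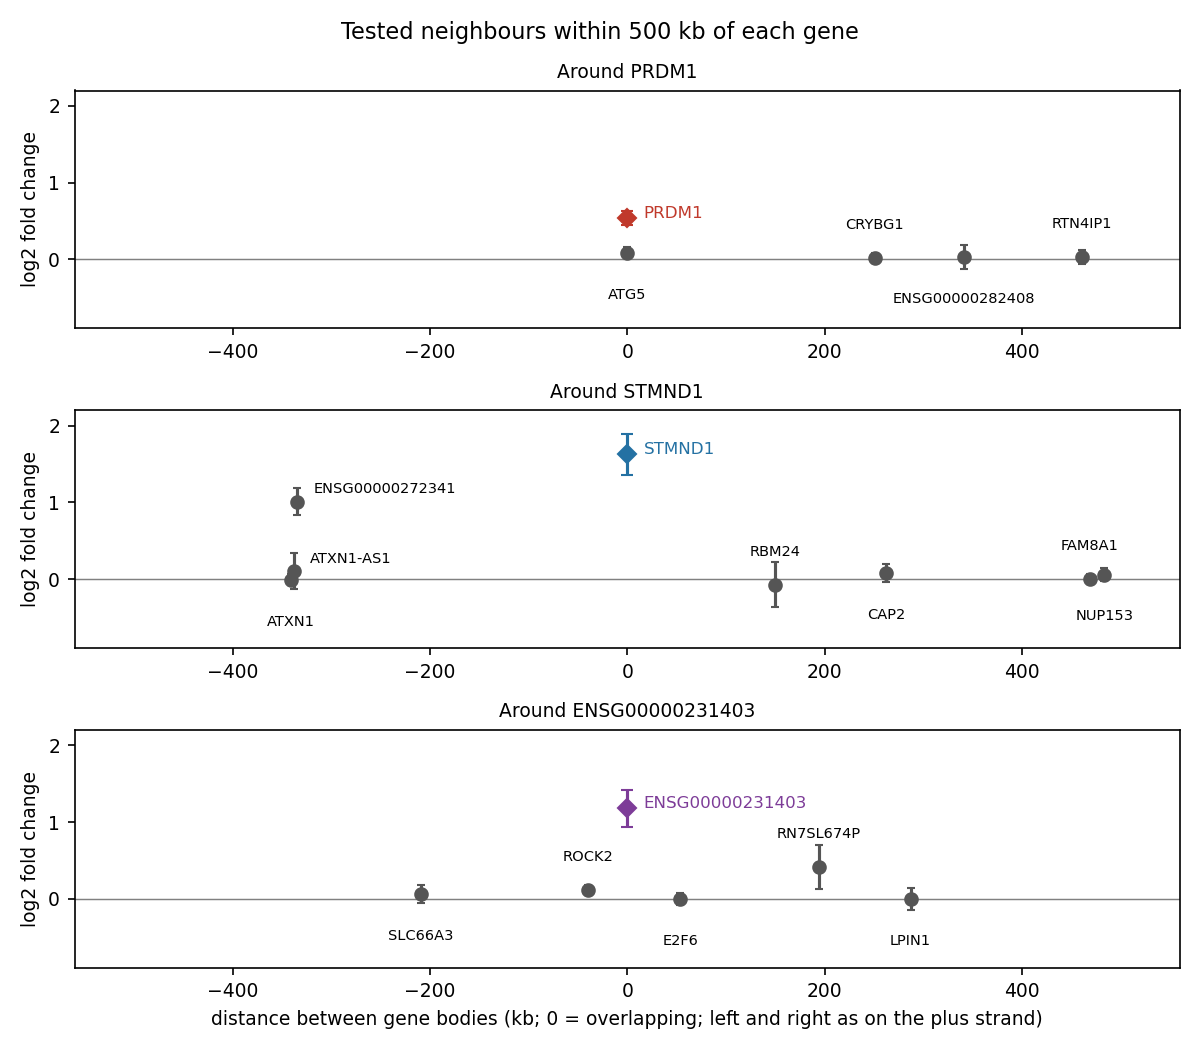
Log2 fold change (edgeR, no block, with standard error) of the tested genes within 500 kb of PRDM1, STMND1 and ENSG00000231403, by distance between gene bodies in kb. Coloured diamonds are the members and grey points their neighbours; ENSG00000272341 near ATXN1 (1.01) is the only neighbour above 0.5.

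The strand setting of the counting was not given in the sources used here, so shared exons could mix the counts of neighbours. In GENCODE 44, no exonic base of the 3 members lies in an exon of another gene. Within their bodies, PRDM1 shares ground with ATG5 and the lncRNA ENSG00000269919 (mean counts of 1.33 in LMB and 3.67 in LMB+auxin), and ENSG00000231403 with LINC00570 on the opposite strand (0.667 in each group). STMND1 shares ground with ENSG00000287359, a lncRNA on the opposite strand that has no row in the count table used here.

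To place PRDM1 among its relatives, the other 16 genes of the PRDM family were followed, of which 9 passed the filter. The median log2 fold change of the 9 was -0.08, with 8 of them below 0, beside a median of -0.0027 over all tested genes. No set test was run, so this is not read as a fall of the family. Without the block edgeR called none of them, with 0 below an unadjusted p of 0.05, and DESeq2 and limma-voom called 0. With the block, 1 was called against 1.18% of all genes, and it fell. This was MECOM, a zinc finger oncogene on chromosome 3, which was at 4.89, 5.26 and 5.98 CPM in the LMB libraries, against 3.17, 5.04 and 4.22 CPM in those with auxin. On the log2 scale it was at -0.38 ± 0.12 with the block (edgeR adjusted p 0.0397), and at -0.38 ± 0.18 without it (0.954). The groups overlapped, and the call was lost without replicate 1 (-0.29, edgeR adjusted p 0.263) or replicate 3 (-0.31, 0.417). None of the 9 was called as higher in either fit.

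All corepressors followed passed the filter. These 9 genes (HDAC1, HDAC2, KDM1A, EHMT2, PRMT5 and TLE1 to TLE4) had a median log2 fold change of 0.05, and edgeR called 0 in either fit (unadjusted p below 0.05 in 0 genes without the block and in 2 with it, beside 3376 of the 16974 tested genes; DESeq2 and limma-voom called 0). Among all tested genes, edgeR called 1 without the block and 1.18% with it. HDAC2, a histone deacetylase, was at 0.14 ± 0.07, and KDM1A, a histone demethylase, at 0.09 ± 0.06 (edgeR adjusted p 0.954 for both).

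Of 12 genes in the circuit around PRDM1 in lymphocytes, 8 passed the filter. IRF4 and PAX5, which act upstream of PRDM1 in B cells, had a mean of at most 0.0445 CPM in a group, and IFNB1 and SPIB were under the filter as well. The 8 had a median of 0.03 and edgeR called 0 of them in either fit, with an unadjusted p below 0.05 in 0 genes (2 with the block, beside 3376 of 16974) and 0 calls by DESeq2 and limma-voom. As given above, edgeR called 1 of all tested genes without the block and 1.18% with it. The known BLIMP-1 target MYC was at -0.07 ± 0.18. ID3, an inhibitor of basic helix-loop-helix factors, was at 0.26 ± 0.34 without the block, and with it passed the adjusted p (edgeR 0.0114) at 0.26, below the fold change of 1.3. BACH2, a repressor of PRDM1, was lower at -0.26 ± 0.13 (edgeR adjusted p 0.954, and 0.104 with the block). It was lower in all 3 pairs, while STAT3, CIITA and ID3 of the same list were higher in all 3. The share of all tested genes that moved one way in all 3 pairs is not given here, so nothing is read from this.

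Of the 6 genes tied to the change from suckling to adult gut, 4 passed the filter and 0 were called by edgeR in either fit (0 at an unadjusted p under 0.05 in both, and 0 by DESeq2 and limma-voom). Of all 16974 tested genes, edgeR called 1 without the block and 201 (1.18%) with it, DESeq2 called 11 and limma-voom 1. At such shares, 0 calls in so short a list say little. TREH, the trehalase gene, was at -0.20 ± 0.13 and LCT, the lactase gene, at 0.15 ± 0.14 (edgeR adjusted p 0.954 for both). The sucrase-isomaltase gene SI had a mean of 0.0107 CPM in LMB and none in LMB+auxin.

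Among the 4 stathmins proper, STMN1 and STMN3 passed the filter. STMN1, which is abundant in dividing cells, averaged 198 CPM without auxin, 210 CPM with it, which is 0.08 ± 0.06 on the log2 scale (edgeR adjusted p 0.954). STMN3 was at -0.06 ± 0.19. Neither was called by edgeR in either fit, by DESeq2 or by limma-voom (0 at an unadjusted p under 0.05). With the block edgeR called only 1.18% of all tested genes, and 1 gene without it, so this says little. STMN1 and STMN3 lay below STMND1, as did every other tested gene, since STMND1 had the highest log2 fold change of all.

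**Figure D5:**
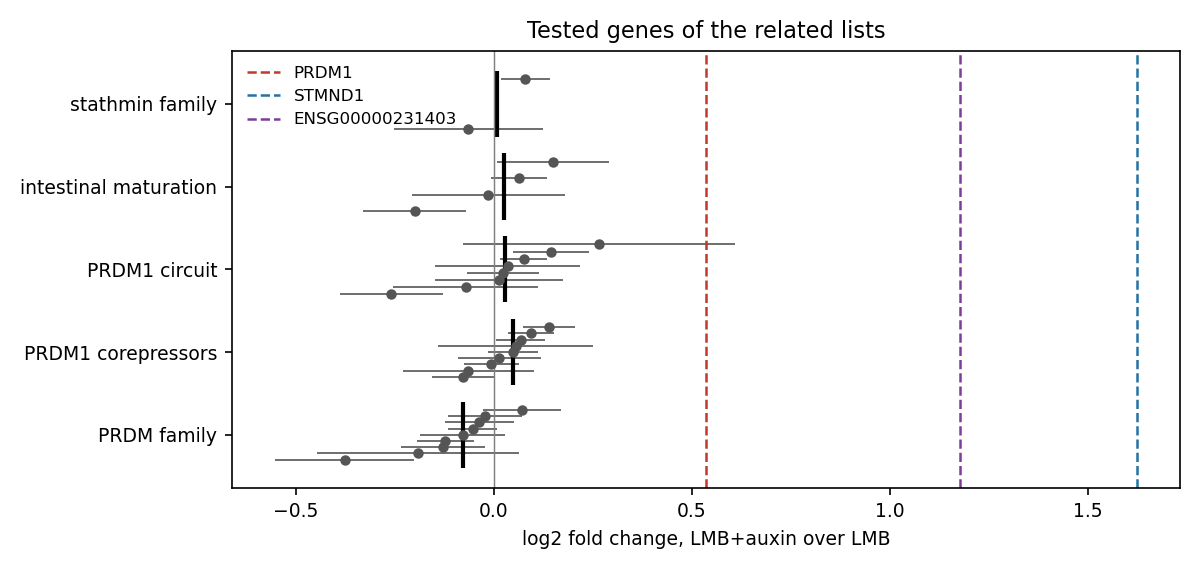
Log2 fold change (edgeR, no block, with standard error) of the tested genes of 5 related lists. Black ticks are list medians, from -0.08 for the PRDM family to 0.05 for the corepressors, and dashed lines are the members at 0.54, 1.18 and 1.62, to the right of every point. The members were chosen for their rise, so nothing is read from this order.

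The tested genes whose pattern over the 6 libraries was nearest to each member were found by Pearson's r of log2 CPM. For PRDM1 they were CNKSR3, SMURF2, ATRN, EPC1 and RUFY2, with r from 0.98 to 1.00. Those of STMND1 included KIF2A, PPP1R15A, EZH2 and TIPARP (0.99 each, to 2 decimals). For ENSG00000231403 they were ENSG00000283485, PDHX, SNW1, LARP7 and ENSG00000266076 (0.99 each). The log2 fold changes of these genes were at most 0.37 except for TIPARP, which was at 0.61 and was also called with the block. With 6 libraries such a ranking is loose: 149, 177 and 289 genes had r above 0.9 with PRDM1, STMND1 and ENSG00000231403. Under scaling by library size alone 1, 0 and 0 of the 5 genes were still among the nearest 5, and under a prior count of 0.5 all 5 were for each member.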

How the data were processed

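RNA of 6 DLD-1 cultures (3 LMB, 3 LMB+auxin) was depleted of ribosomal RNA, made into libraries with a stranded kit (per the methods) and sequenced as paired-end reads. Per the submitters' processing notes, CASAVA 1.8.2, STAR 2.6.1c and featureCounts 1.5.2 were used with GRCh38. The methods give other versions of STAR and featureCounts, and gene models from Ensembl. What the authors deposited is a table of raw counts for each gene, with no normalization. The strand setting was not given in the sources used here. Groups and replicate numbers came from sample titles, and treatment times from the incubation label (3 h of Leptomycin B, where the titles give 2 h).

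Genes with CPM above 1 in at least 3 libraries (16974 of 58051) were tested with edgeR 4.0.16 in R 4.3.3 (TMM, robust quasi-likelihood test, Benjamini-Hochberg adjustment over all of them). Genes were called at a 1.3-fold change or more with an adjusted p below 0.05. The study's own tool, DESeq2 (version 1.42.0 here), and limma-voom (limma 3.58.1) were alternatives, as were other scalings, no filter, left-out libraries and the replicate number as a block. The edgeR test was tested on simulated data. Same-numbered libraries of both groups deviated together from the group means (r of 0.53, 0.69 and 0.27 for numbers 1, 2 and 3 over 16974 genes). Libraries of unlike number had r from -0.57 to 0.15. The numbers were therefore taken to pair the libraries, with the weakest grounds for number 3. The methods call the replicates independent biological ones. CPM values used the TMM factors, and standard errors are the log2 fold change over the square root of F.

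The members and the gene lists were chosen with earlier results of these data known. The rule for named genes took the members, called list genes or else the 2 of largest absolute log2 fold change in a list, the nearest tested gene on each side and called neighbours, and the 5 genes of highest r. Some neighbours and list genes outside the rule (MYC and NUP153 among them) were named after their values were seen. Windows of 500 kb and lengths used GENCODE 44, which matched 56948 of the genes. Results for some items are not reported here. Intervals are at 95% and cover counting error only.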

Additional observations from a re-analysis of the deposited data

How the results depend on the processing

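The 3 members had positive log2 fold changes in all 16 alternatives. They were chosen for their rise in these same libraries, so the sign is a description and no test of the rise. PRDM1 ran from 0.49 to 0.62, STMND1 from 1.42 to 2.01 and ENSG00000231403 from 0.93 to 1.39. Leaving out 1 library gave 0.49 to 0.58, 1.42 to 2.01 and 0.93 to 1.39, and the ends for STMND1 came without LMB replicate 2 and without LMB replicate 3. For ENSG00000231403 they came without LMB+auxin replicate 1 and without LMB+auxin replicate 2. Scaling, tool, filter and block moved PRDM1 within 0.52 to 0.54, STMND1 within 1.61 to 1.67 and the lncRNA within 1.14 to 1.19. The median of all genes was -0.0027, and no scaling moved a member by more than its standard error.

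The number of genes called was 1 without the block (741 at an unadjusted p under 0.05). It was 201 with the replicate block (the paired fit), and 137 to 160 when a replicate pair was also left out (141 without pair 1). Without the block it was 39 without the filter, 11 by DESeq2, 1 by limma-voom and 0 under library size alone (737 at an unadjusted p under 0.05 by edgeR). It was 0 to 5 when 1 library was left out: 0 without LMB replicate 1 or 3 or LMB+auxin replicate 1 or 3, but 2 when LMB replicate 2 and 5 when LMB+auxin replicate 2 was omitted. The block changed no other call among the genes named than those given with it. The median of the PRDM1 circuit, 0.03, was -0.13 without LMB+auxin replicate 2. The cause was not tested. STMND1 had the fewest counts of the 3 members.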
